A study of Mus musculus with 30 samples.

Results

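The transcriptome of mouse brown adipose tissue (BAT) after 24 h at 6 °C was compared with that of BAT at 22 °C, over all genes of the deposited count table. The comparison rests on 10 of the 30 libraries of the series, 5 labelled 22 °C and 5 labelled 24 h at 6 °C. The 5 BAT libraries labelled 6 h at 6 °C entered the same fit to help estimate the spread, and their levels are shown beside the 24 h levels. Every library came from male C57BL/6J mice of 7-8 weeks with no genetic change or drug named in the labels. The mice were kept 5 to a cage with food and water freely available and 12 h each of light and dark, in a room of 24 ± 2 °C, whereas the controls are labelled 22 °C. The other libraries of the series are inguinal white adipose tissue (iWAT) under the same 3 conditions. Poly(A) RNA was sequenced, and 13090 of the 21652 listed genes had enough counts to be tested. Separate animals are not stated for the replicates in the labels, so p-values measure the spread between these samples, which may in part be technical. The time of day of sampling is not given in the sources used here.

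Brown fat burns fatty acids and glucose to make heat. In the cold, noradrenaline from sympathetic nerves acts on beta-adrenergic receptors of brown adipocytes, cyclic AMP rises, triglyceride is broken down, and the released fatty acids both fuel the mitochondria and open uncoupling protein 1 (Ucp1), which lets protons return across the inner membrane without making ATP. The same signal raises transcription of genes for thyroid hormone activation, mitochondrial coactivators and fuel supply, and over days the tissue is remodelled.

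The 10 libraries held 25.3 to 39.7 M assigned counts, and mitochondrially encoded genes took 24.3 to 26.5% of them. Defining markers of brown adipocytes were present in every BAT library, with Ucp1 at 5170 to 9780 FPKM and Cidea at 1500 to 2720 FPKM (authors' counts per kilobase of gene and per M reads), while the brown-fat transcription factors Zic1 (1.32 to 4.07 FPKM) and Lhx8 (0.552 to 2.61 FPKM) were low. The libraries of both groups differed widely in skeletal muscle RNA. The 13 listed skeletal muscle markers took 0.0293 to 0.79% of counts at 22 °C and 0.0067 to 0.418% at 24 h. The mean log2 CPM (counts per M, or mega, of the library size after TMM scaling) of the 12 that were tested was 6.9, 4, 6.83, 8.26 and 9.06 in replicates 1 to 5 at 22 °C, and -0.88, -1.6, 6.22, 5.74 and 8.08 at 24 h. None of the 12 was called (median log2 fold change -1.48) at 24 h, and 2 were lower without 24 h replicate 5. On the first principal component of the 15 BAT libraries (43.4% of variance), 22 °C replicate 5, with the most muscle RNA, and 24 h replicate 2, with the least, were the end points. The part of muscle RNA in the results was not tested beyond the alternatives given. A second difference was in 24 h replicate 4, in which interferon-stimulated genes stood at a mean log2 CPM of 4.61 against 2.61 to 2.87 in the other 24 h libraries, and macrophage markers at 3.33 against 2.06 to 2.68. Counts of list members below are given with some of the alternatives that moved them, and counts given without any may also have shifted. These counts are to be read beside the shares over all genes tested, 12.8% called higher and 10.4% called lower at 24 h. The members and lists were chosen with earlier results of these data known, so the shares only describe them, and no list was tested. Counts of 1 to 3 genes often changed by 1 gene when a library was left out. In bulk tissue, fewer cells of a type and less RNA per cell cannot be told apart.

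**Figure D1:**
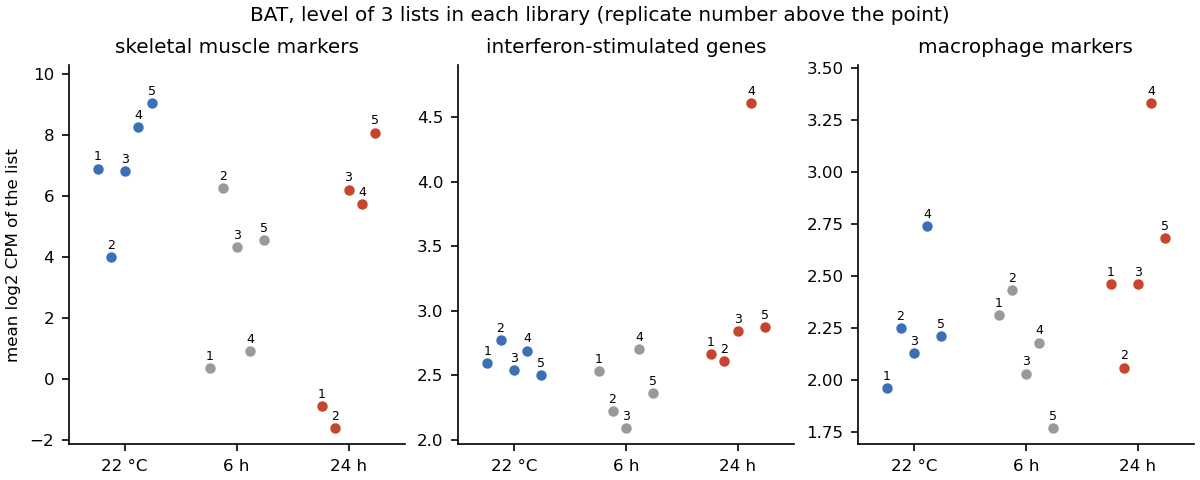
Mean log2 CPM of 3 gene lists in each BAT library at 22 °C, 6 h and 24 h, with the replicate number above each point. Skeletal muscle markers span -1.6 to 9.06 across the 22 °C and 24 h libraries, and 24 h replicate 4 is the highest point for interferon-stimulated genes (4.61) and macrophage markers (3.33).

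After 24 h in the cold, 1670 genes were higher and 1360 lower in BAT at an adjusted p under 0.05 (edgeR's quasi-likelihood test with Benjamini-Hochberg adjustment over all genes tested). These 3030 genes were 23.1% of those tested, 12.8% being higher and 10.4% lower. The called changes were mostly small: 238 genes rose and 202 fell by a log2 of at least 1, 440 in all. The 5 libraries of each group did not overlap for 2392 genes, 18.3% of those tested, and 2158 of the called genes were among them. The median log2 fold change over all genes tested was -0.009. Of the 22 °C and 24 h libraries, 22 °C replicate 2 and 24 h replicates 1 and 2 held the least skeletal muscle RNA. Without these 3 muscle-poor libraries, chosen after seeing the data, 1738 genes were called, 1013 higher and 725 lower. At 6 h, replicates 1 and 4 held less than 22 °C replicate 2 (mean log2 CPM of the muscle markers 0.35 and 0.91 against 4) and stayed in the fit.

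**Figure D2:**
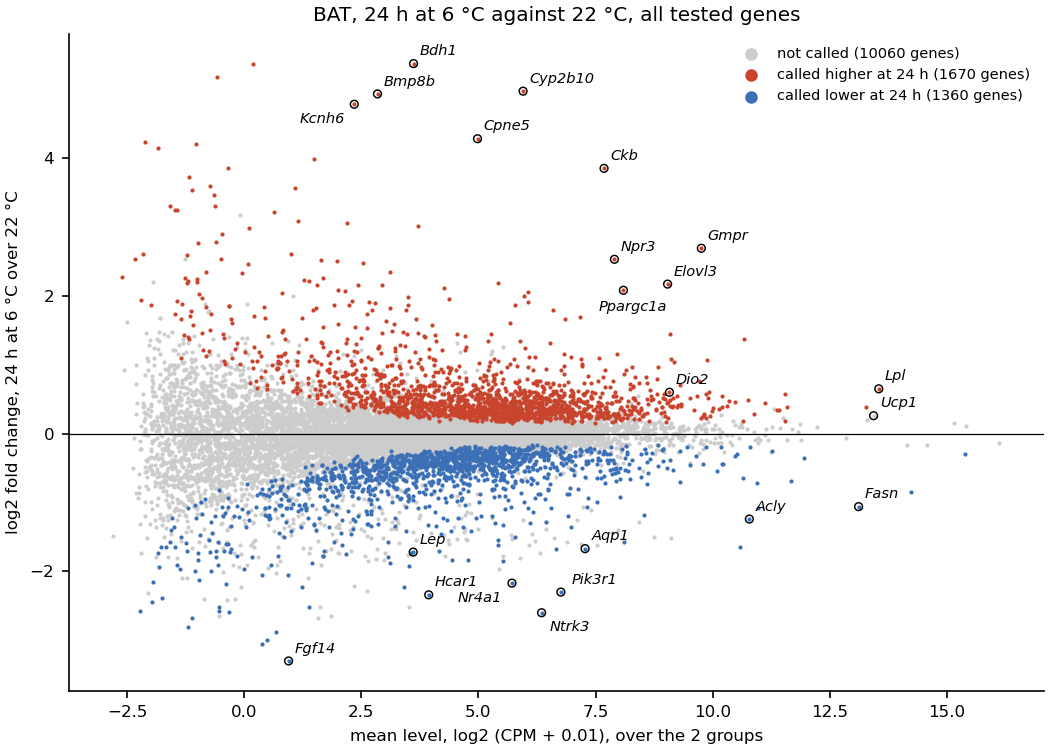
Log2 fold change (24 h at 6 °C over 22 °C) of the 13090 tested genes against the log2 of the mean CPM of the 2 groups, with called genes coloured by direction and 22 genes circled. Most of the 3030 called genes lie close to the zero line, with Bdh1, Cyp2b10, Bmp8b and Kcnh6 at the top and Fgf14 and Ntrk3 at the bottom among the circled genes.

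The largest rises among genes with separated groups and at least 5 CPM came from a mixed set of metabolic enzymes, a growth factor and a few membrane proteins. Bdh1 (ENSMUSG00000046598), the mitochondrial enzyme that interconverts the ketone bodies 3-hydroxybutyrate and acetoacetate, stood at 0.31, 0.511, 0.161, 0.375 and 1.49 CPM in replicates 1 to 5 at 22 °C and at 34.1, 13.9, 34.2, 18.5 and 19 CPM after 24 h. The gene was almost silent in the controls, with replicate 5 the highest of them, and every cold library was far above. The rise was 41.4-fold, or 5.37 ± 0.5 on the log2 scale (value ± approximate SE here and below, adjusted p = 2.17e-06), or 6.18 without 22 °C replicate 5. Bmp8b (ENSMUSG00000002384), a secreted factor of the bone morphogenetic protein family made by brown adipocytes, stood at 0.344, 0.275, 0.67, 0.273 and 0.641 CPM at 22 °C and at 18.2, 11.5, 8.75, 16.5 and 14.7 CPM after 24 h. The groups were wide apart and each was narrow (log2 4.93 ± 0.4, adjusted p = 7.72e-07).

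Ckb (ENSMUSG00000001270), the brain-type creatine kinase, had the smallest p of all genes tested. It stood at 25.5, 36.4, 17.9, 24 and 29.8 CPM at 22 °C and at 497, 343, 455, 359 and 265 CPM after 24 h. No cold library came near the control range, and the rise was 14.4-fold (log2 3.85 ± 0.2, adjusted p = 1.02e-08). Gmpr (ENSMUSG00000000253), the GMP reductase that converts guanine to adenine nucleotides by way of IMP, moved from 242, 307, 205, 122 and 293 CPM to 1530, 1460, 1710, 1440 and 1370 CPM, with the 5 cold libraries close together (log2 2.69 ± 0.18, adjusted p = 2.11e-07). Cpne5, a calcium-dependent phospholipid-binding copine, moved from 1.23 to 4.64 CPM over the controls to 38.1 to 84.3 CPM (log2 4.28 ± 0.37). Kcnh6, a voltage-gated potassium channel, moved from 0.0682 to 0.983 CPM to 7.42 to 15.1 CPM (log2 4.78 ± 0.49, or 5.48 without 22 °C replicate 2).

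Cyp2b10, a cytochrome P450 of drug and steroid metabolism, was uneven within the cold group. It stood at 3.17, 3.11, 1.15, 6.44 and 5.42 CPM at 22 °C and at 54.1, 49.5, 473, 18 and 6.61 CPM after 24 h, so that replicate 5 lay just above the highest control while replicate 3 was far above the others. Its log2 fold change of 4.97 ± 1.02 (adjusted p = 0.00212) was 3.06 without 24 h replicate 3, and reads shared with other Cyp2b genes may be split by the authors' counting. Among the other large rises were 2 acyl-CoA thioesterases, which release free fatty acid or acetate from coenzyme A. Acot5 of peroxisomes had a log2 fold change of 3.99 ± 0.46 and the acetyl-CoA hydrolase Acot12 of 2.52 ± 0.25, and for Acot5 too near-identical copies could share reads. Tacr2, the neurokinin A receptor (3.05 ± 0.37), the guanine nucleotide exchange factor gene Arhgef37 (3.01 ± 0.3) and Npr3, the clearance receptor of natriuretic peptides (2.53 ± 0.24), completed the 12.

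Of the 12 largest falls, several came from receptors and signalling genes. Ntrk3 (ENSMUSG00000059146), the receptor of neurotrophin-3, stood at 153, 94.9, 158, 154 and 139 CPM at 22 °C and at 22.5, 28.7, 14.1, 24.7 and 25 CPM after 24 h. Control replicate 2 was the lowest of its group and still more than any cold library (log2 -2.6 ± 0.19, adjusted p = 3.44e-07). Pik3r1 (ENSMUSG00000041417), a regulatory subunit of phosphatidylinositol 3-kinase in insulin signalling, stood at 59.5, 210, 226, 243 and 163 CPM at 22 °C and at 29.8, 39.3, 35.9, 37.5 and 40.9 CPM after 24 h. The cold libraries were tight, and control replicate 1 lay well under the other controls without reaching them (log2 -2.3 ± 0.27, adjusted p = 1.48e-05). Hcar1 (ENSMUSG00000049241), the lactate receptor that restrains lipolysis, stood at 24, 21.9, 29.1, 38.2 and 14.8 CPM at 22 °C and at 5.39, 2.46, 5.63, 6.06 and 5.62 CPM after 24 h (log2 -2.34 ± 0.31). All 5 cold libraries were lower than every control.

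The other falls of this size were those of the fructose transporter Slc2a5 (log2 -2.23 ± 0.4), the nuclear receptor Nr4a1 (-2.17 ± 0.36), the Klotho-family gene Lctl (-1.92 ± 0.19), Vat1l (-1.88 ± 0.22) and the matrix protein Svep1 (-1.85 ± 0.25). Next came the poly(A) polymerase family gene Tent5a (-1.83 ± 0.25), the medium-chain acyl-CoA synthetase Acsm3 (-1.83 ± 0.21), Tmem179 (-1.79 ± 0.2) and the secretin receptor Sctr (-1.75 ± 0.24). Among the 10 genes with the smallest p were others that fell: Fgf14 (ENSMUSG00000025551), an intracellular factor that binds sodium channels, went from 2.84 to 4.01 CPM to 0.232 to 0.437 CPM (log2 -3.3 ± 0.24), and Aqp1 (ENSMUSG00000004655), a water channel of small vessels, from 204 to 263 CPM to 58.6 to 92.3 CPM (-1.67 ± 0.13). Sardh, which oxidises sarcosine (-1.7 ± 0.12), and the cell adhesion gene Negr1 (-1.23 ± 0.09) belong to the same 10. Those that rose were Ckb and Gmpr, the peroxisomal carrier Slc25a17 (0.93 ± 0.06), the mitochondrial cysteinyl-tRNA synthetase Cars2 (1.91 ± 0.13) and the haem oxygenase Hmox2 (0.92 ± 0.06). Slc25a17 and Hmox2 moved less than 2-fold and ranked high because their replicates were tight, with Hmox2 at 45.6 to 53.6 CPM at 22 °C and 87.4 to 102 CPM after 24 h.

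**Figure D3:**
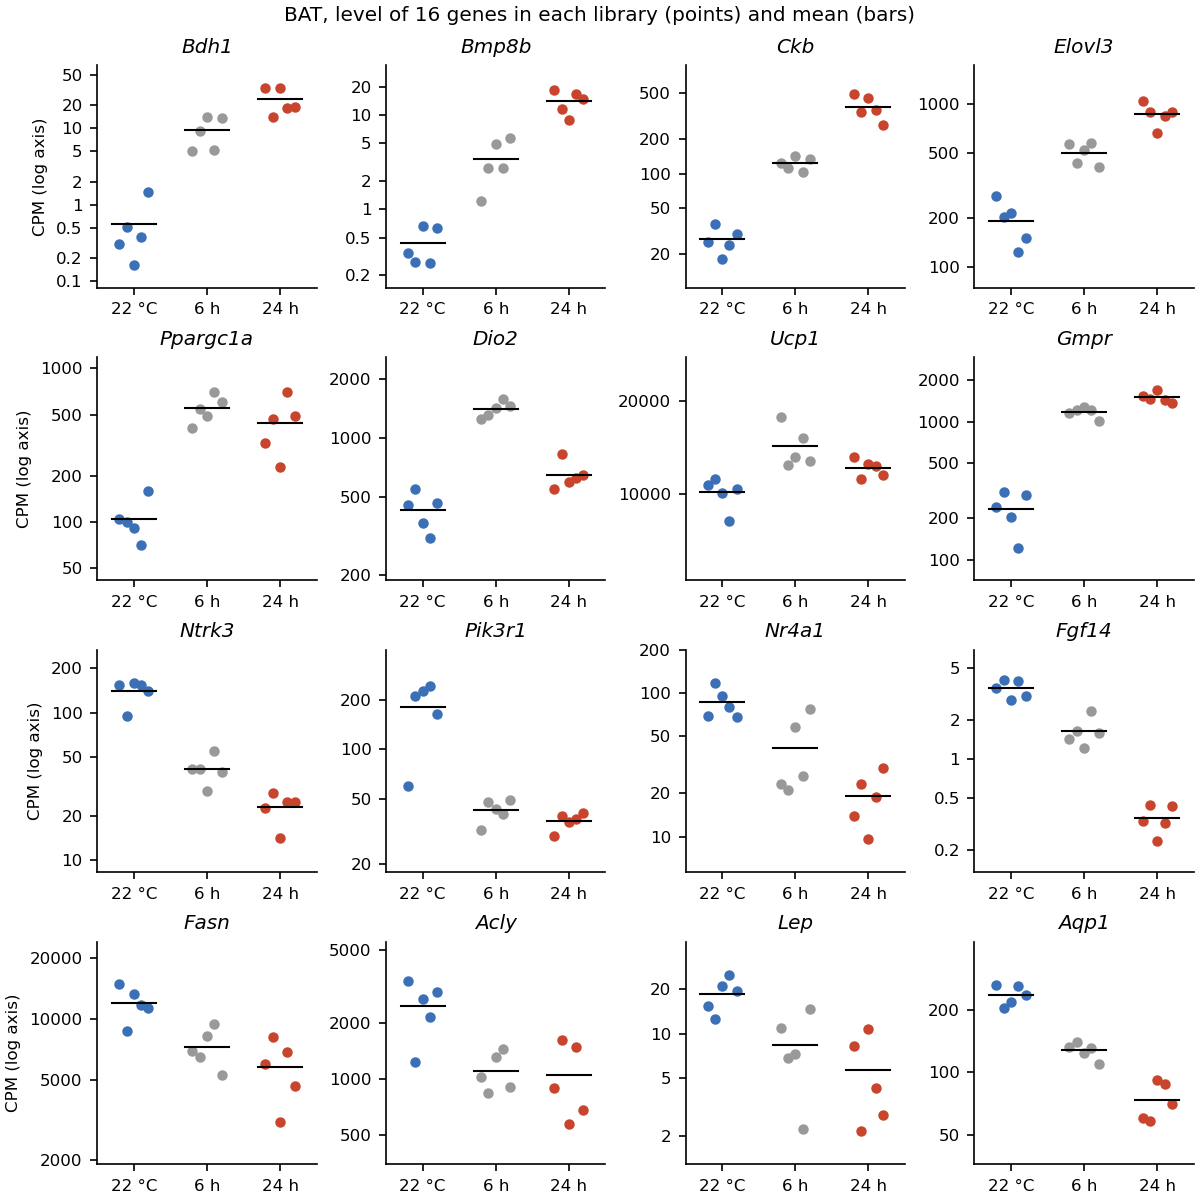
Level of 16 genes in each BAT library (points, CPM on a log axis) and group mean (bars) at 22 °C, 6 h and 24 h. The 24 h points of Bdh1, Bmp8b, Ckb, Elovl3, Ppargc1a and Gmpr lie above all 22 °C points and those of Ntrk3, Pik3r1, Nr4a1, Fgf14 and Aqp1 below them, while Ucp1 overlaps and Dio2 is highest at 6 h.

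Among thermogenic genes, 14 of 27 were higher and 1 lower at 24 h, against 12.8% and 10.4% of all genes tested, and the median log2 fold change was 0.4 against -0.009. In a fit of all 30 libraries, where the spread is estimated together with iWAT, 6 were higher and none lower. Elovl3 (ENSMUSG00000038754), an elongase of very long fatty acids that marks active brown fat, stood at 270, 201, 213, 124 and 150 CPM at 22 °C and at 1030, 890, 659, 834 and 885 CPM after 24 h. The groups were separate (log2 2.17 ± 0.18, adjusted p = 9.65e-07). Ppargc1a (ENSMUSG00000029167), the coactivator of mitochondrial and thermogenic genes, stood at 104, 99.4, 91.2, 70.6 and 158 CPM at 22 °C and at 328, 467, 227, 700 and 487 CPM after 24 h. It rose 4.22-fold (log2 2.08 ± 0.26, adjusted p = 3.26e-05), with a wider spread in the cold group. Gpr3, a receptor that raises cyclic AMP without a ligand, was called as higher from few reads: it was at 0 CPM in 3 control libraries and at most 0.0536 CPM in the others, and at 0.562, 0.318, 0.0994, 0.556 and 0.577 CPM after 24 h.

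Ucp1 itself (ENSMUSG00000031710) did not pass the test. It stood at 10700, 11200, 10100, 8190 and 10400 CPM at 22 °C and at 13200, 11200, 12500, 12300 and 11500 CPM after 24 h. The ranges touched at replicate 2 of each group, and the level was already very high in the controls, where the authors' FPKM averaged 6230 against 7480 after 24 h. Its log2 fold change was 0.26 ± 0.1 (adjusted p = 0.0672), with a 95% interval that spanned 0.05 to 0.48. Over the alternatives the adjusted p of Ucp1 ranged from 0.0235 to 0.805, and 3 of them called it. Dio2 (ENSMUSG00000007682), which makes active thyroid hormone inside the tissue, stood at 456, 550, 370, 308 and 468 CPM at 22 °C and at 554, 827, 596, 628 and 652 CPM after 24 h. All cold libraries lay above the controls, replicate 1 by a narrow margin (log2 0.6 ± 0.14, adjusted p = 0.00424, but 0.483 in the fit of 30 libraries). Cidea, a lipid droplet protein, rose from 1760 to 2000 CPM to 2210 to 3070 CPM (log2 0.45 ± 0.09, adjusted p = 0.00162, but 0.448 in the fit of 30 libraries).

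Promoter sequence is shown for Dio2, Ppargc1a and Nr4a1 because all are known targets of cyclic AMP signalling and yet moved in different directions and amounts at 24 h. The lines give the 250 bases before the start site, 5′ to 3′ on the gene's strand, from RefSeq on GRCm38.p6 (the deposited files name GRCm39), with every TGACG in either orientation (CGTCA on the other strand) in capitals. This is the shorter form of the cyclic AMP response element, and the full element TGACGTCA holds both orientations overlapping.
Dio2, chr12:90739039-90739288, minus strand: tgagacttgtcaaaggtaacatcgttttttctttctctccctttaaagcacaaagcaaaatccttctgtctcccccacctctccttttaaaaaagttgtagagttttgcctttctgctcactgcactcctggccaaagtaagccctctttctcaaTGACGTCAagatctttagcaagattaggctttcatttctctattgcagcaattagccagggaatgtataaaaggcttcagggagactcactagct
Ppargc1a, chr5:51567726-51567975, minus strand: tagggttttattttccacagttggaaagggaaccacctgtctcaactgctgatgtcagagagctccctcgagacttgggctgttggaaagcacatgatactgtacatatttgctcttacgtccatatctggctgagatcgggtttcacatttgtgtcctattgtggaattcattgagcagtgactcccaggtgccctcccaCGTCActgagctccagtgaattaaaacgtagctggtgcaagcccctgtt
Nr4a1, chr15:101266596-101266845, plus strand: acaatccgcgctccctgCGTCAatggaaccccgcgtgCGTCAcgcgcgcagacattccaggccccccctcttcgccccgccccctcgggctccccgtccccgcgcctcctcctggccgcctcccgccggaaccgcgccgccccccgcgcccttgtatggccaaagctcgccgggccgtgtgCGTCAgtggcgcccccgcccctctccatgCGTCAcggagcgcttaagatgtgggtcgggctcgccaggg
The Dio2 window held 1 full element, that of Ppargc1a 1 TGACG and that of Nr4a1 4. Over windows reaching 50 bases past the start site, TGACG occurred in 34.4% of the 10200 tested genes with an entry, in 35.7% of those called higher and in 31% of those called lower. TGACGTCA occurred in 3.35%, 3.35% and 2.72%, and AGGTCA, a core site of many nuclear receptors, in 15%, 18% and 13.6%. A match describes the letters only, and no binding was measured.

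Of the genes that carry the adrenergic signal 29.2% were called, against 23.1% of all genes tested. Of 24 tested receptors, cyclases, kinases and phosphodiesterases 4 were higher and 3 lower, near the background (median log2 -0.07). Adrb3, the main beta receptor of rodent adipocytes, stood at 158 to 217 CPM at 22 °C and 110 to 229 CPM after 24 h (log2 -0.09 ± 0.15, adjusted p = 0.686). Adcy3, the adenylyl cyclase of brown fat, stood at 289, 426, 283, 210 and 245 CPM at 22 °C and at 811, 921, 679, 725 and 835 CPM after 24 h. All 5 cold libraries lay above every control (log2 1.45 ± 0.16, adjusted p = 1.24e-05). Prkar1a, a regulatory subunit of protein kinase A, and the phosphodiesterase Pde4a rose by smaller amounts (0.37 and 0.47), and the cyclic AMP-responsive regulator Crem fell by 0.5.

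Immediate early and cyclic AMP-responsive transcription factors were higher in 3 and lower in 5 of 24 cases (median log2 -0.09), with 5 higher without 22 °C replicate 2. Nr4a1 (ENSMUSG00000023034), an orphan nuclear receptor that responds to catecholamines within minutes to hours, stood at 68.8, 118, 95.6, 80.3 and 67.6 CPM at 22 °C and at 14, 23.2, 9.64, 18.8 and 29.8 CPM after 24 h. Every cold library was below every control (log2 -2.17 ± 0.36, adjusted p = 0.000396). The vascular and immune cell factor Klf2 also fell (-1.05 ± 0.18). Atf3, a stress-induced factor (1.24 ± 0.31, adjusted p = 0.0599 without the 3 muscle-poor libraries), and the AP-1 member Junb (0.85 ± 0.23) rose, with overlapping groups in both.

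The main triglyceride lipase did not pass the test, and several receptors that restrain lipolysis fell. The lipase Pnpla2, which starts triglyceride breakdown, had a log2 fold change of -0.09 ± 0.11 (adjusted p = 0.586) and ranges of 1830 to 2360 CPM at 22 °C and 1780 to 2410 CPM after 24 h. Of 22 lipolysis genes 8 were higher and 3 lower (median 0.08), with 6 to 9 higher over the alternatives. The 3 that fell are receptors that act through inhibitory G proteins: Hcar1 as above, Hcar2, the receptor of 3-hydroxybutyrate and niacin (log2 -1.88 ± 0.39), and Ptger3, a prostaglandin E2 receptor (-0.91). Npr3 rose from 51.5 to 96 CPM to 284 to 540 CPM. Plin5, a droplet protein that ties lipid stores to mitochondria, rose by 0.54 on the log2 scale (adjusted p = 0.165 in the fit of 30 libraries).

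Genes for taking up and binding fatty acids were called higher more often than lower, and of those for making fatty acids 12 of 23 were called lower. For uptake, binding and activation 12 of 26 were higher and 5 lower (median log2 0.13); the number lower was 1 to 3 without any 1 of 8 libraries (all but 22 °C replicate 5 and 24 h replicate 3). Lpl, the lipoprotein lipase that frees fatty acids from circulating triglyceride, stood at 8450, 11900, 9090, 8130 and 9270 CPM at 22 °C and at 14100, 15300, 15400, 13800 and 14700 CPM after 24 h, with no overlap (log2 0.65 ± 0.09, adjusted p = 8.96e-05). Fabp3, a fatty acid carrier in the cytosol, stood at 776, 1090, 920, 733 and 1010 CPM and then at 2770, 2000, 2470, 2170 and 2300 CPM (1.37 ± 0.12, adjusted p = 1.77e-06, but 0.194 in the fit of 30 libraries). Mfsd2a, a transporter of lysophospholipids, rose from 19.9 to 34.9 CPM to 84.9 to 131 CPM (2.05 ± 0.18). In triglyceride synthesis 7 of 19 were higher and 2 lower (median 0.19), with the lipin Lpin3 at 0.95 and the acyltransferase Dgat1 at 0.73, while Mogat1 (-0.79) and the glycerol-forming enzyme gene Pck1 (-0.69) fell.

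In de novo lipogenesis these 12 genes were lower and none was higher, against 10.4% and 12.8% of all genes, with a median log2 fold change of -0.42; 11 were not called and 6 of the 23 had a positive value. The number lower was 9 to 14 over the alternatives and the number higher stayed at 0. Fasn (ENSMUSG00000025153), the fatty acid synthase, stood at 14900, 8760, 13300, 11800 and 11400 CPM at 22 °C and at 6000, 8180, 3110, 6910 and 4670 CPM after 24 h. Control replicate 2 and cold replicate 2 lay closest, without crossing (log2 -1.06 ± 0.22, adjusted p = 0.00202). Acly (ENSMUSG00000020917), which makes acetyl-CoA from citrate, stood at 3370, 1240, 2700, 2170 and 2940 CPM and then at 892, 1620, 569, 1490 and 682 CPM (-1.24 ± 0.29, adjusted p = 0.00563). Here control replicate 2 was under 2 of the cold libraries. The mitochondrial citrate exporter Slc25a1 fell most in the list, from 274 to 594 CPM to 109 to 174 CPM (-1.58 ± 0.22), and the acetyl-CoA carboxylase Acaca fell by 1.08.

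**Figure D4:**
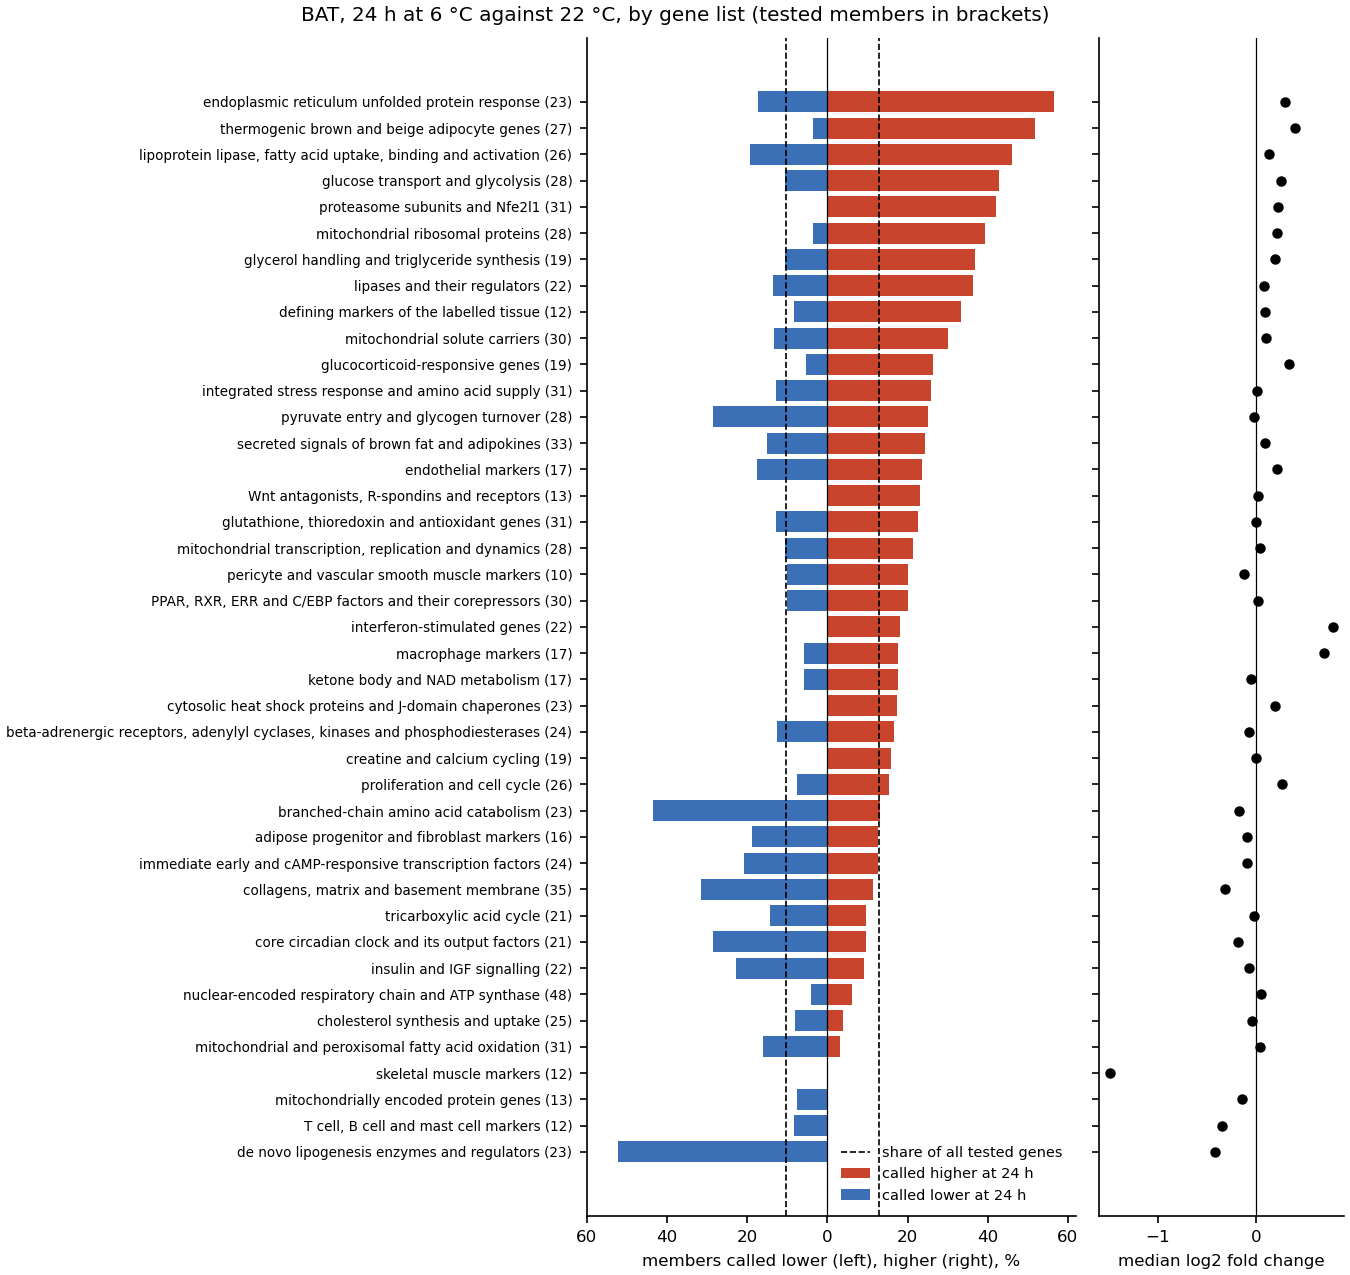
Share of tested members called lower (left, blue) and higher (right, red) at 24 h in each gene list with at least 10 tested members, and the median log2 fold change of the list (right panel); dashed lines mark the shares over all genes, 10.4% and 12.8%. Unfolded protein response and thermogenic genes have the longest bars to the right, de novo lipogenesis has only a bar to the left, and skeletal muscle markers have none.

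Fatty acid oxidation and the respiratory chain stayed near or under the background. Of 31 oxidation genes 1 was higher and 5 lower (median log2 0.04), with 3 lower without any 1 of 6 libraries (22 °C replicates 2, 3 and 5, 24 h replicates 1, 2 and 5) and 1 lower without the 3 muscle-poor libraries or in the fit of 30 libraries. The number higher was 1 to 4 over the alternatives. The one that rose was Cpt1a, the carnitine palmitoyltransferase of liver type that admits fatty acids to mitochondria, at 18.4 to 25.8 CPM at 22 °C and 38.7 to 47.6 CPM after 24 h (1.02 ± 0.16, adjusted p = 0.00027). Its muscle and brown fat counterpart Cpt1b stood at 12.2 to 16.7 and 12.4 to 18.6 CPM (0.04 ± 0.18, adjusted p = 0.888; the sign turned without 22 °C replicate 5, at -0.01, and without 24 h replicate 2, at -0.06). Of 48 nuclear-encoded genes of the respiratory chain and ATP synthase 3 were higher and 2 lower (median 0.05). Over the alternatives 2 to 5 were higher and 0 to 3 lower, with none lower without the 3 muscle-poor libraries and 1 lower without 24 h replicate 4. The haem A assembly genes Cox10 (0.63) and Cox15 (0.3) rose, as did cytochrome c, Cycs (0.49, adjusted p = 0.0678 in the fit of 30 libraries). Of the 13 mitochondrially encoded genes 1 was lower and none higher by edgeR's test. That 1 call was lost in 11 of 23 alternatives, among them those without 22 °C replicate 1, 2 or 5, without 24 h replicate 1, 4 or 5, and without the 3 muscle-poor libraries, while 3 were lower without 24 h replicate 2. In the tricarboxylic acid cycle 2 of 21 were higher and 3 lower, with 1 higher without the 3 muscle-poor libraries and none in the fit of 30 libraries. The medians of these 2 lists were -0.14 and -0.02.

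Genes that build and supply mitochondria were called more often. Of 28 mitochondrial ribosomal proteins 11 were higher and 1 lower (median log2 0.21), with 5 to 15 higher over the alternatives. Without the 3 muscle-poor libraries 5 were higher and none lower, and 7 were higher in the fit of 30 libraries. The 1 lower call was also lost without 7 of the single libraries (22 °C replicates 2 to 5 and 24 h replicates 1, 2 and 5). Mrpl20 (0.51), Mrps5 (0.49), Mrpl1 (0.4, adjusted p = 0.0668 without those libraries) and Mrps22 (0.38) changed most. Of 30 mitochondrial solute carriers 9 were higher and 4 lower (median 0.1), led by Slc25a34, which went from 28.3, 32, 27.2, 14.9 and 24.3 CPM to 123, 91.7, 128, 74.5 and 89.7 CPM (log2 2 ± 0.18, adjusted p = 2e-06). Slc25a23, a calcium-sensitive ATP-magnesium and phosphate carrier, fell by 0.82. Among genes of mitochondrial transcription, replication and dynamics 6 of 28 were higher and 3 lower (median 0.04), with the mitochondrial RNA polymerase Polrmt at 0.53 and a lower level of the mitophagy receptor Bnip3 (-0.55; adjusted p = 0.0825 without the 3 muscle-poor libraries).

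Genes of glucose transport and glycolysis were called higher more often than lower, and those of pyruvate entry and glycogen changed both ways. Of 28 genes of glucose transport and glycolysis 12 were higher and 3 lower (median log2 0.25), but 5 were higher in the fit of 30 libraries and 7 without the 3 muscle-poor libraries. The largest called changes of this list were falls, those of Aldoc (-2.57 ± 0.84, adjusted p = 0.035) and the fructose transporter Slc2a5 (-2.23 ± 0.4). Aldoc overlapped between the groups and lost its call in 9 of 21 alternatives. The glucose transporter Slc2a1 went from 3.38 to 4.72 CPM to 6.08 to 7.99 CPM (0.78 ± 0.15) and hexokinase Hk1 from 25.9 to 35.4 CPM to 41.9 to 60.3 CPM (0.65 ± 0.11). For pyruvate entry and glycogen 7 of 28 were higher and 8 lower (median -0.02), but none was higher without the 3 muscle-poor libraries, and 3 or 4 on leaving out 1 of 22 °C replicates 3 and 4 and 24 h replicates 2 and 4. In the fit of 30 libraries 3 were higher and 3 lower. Pdk1, a kinase that switches off pyruvate dehydrogenase, stood at 186, 150, 183, 152 and 168 CPM at 22 °C and at 65.6, 85.6, 64.1, 82.4 and 70.6 CPM after 24 h (-1.19 ± 0.09, adjusted p = 4.67e-07). Its relative Pdk4 did not pass (0.36 ± 0.13, adjusted p = 0.0654; 0.0248 without 24 h replicate 1), with ranges of 1800 to 2550 and 2190 to 3200 CPM.

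Branched-chain amino acid catabolism was lower in 10 of 23 genes and higher in 3 (median log2 -0.17), all by small amounts. The number lower was 6 without 22 °C replicate 2, 22 °C replicate 3 or 24 h replicate 4, 5 in the fit of 30 libraries and 4, with 1 higher, without the 3 muscle-poor libraries. Bckdk, the kinase that inhibits the branched-chain ketoacid dehydrogenase, fell by 0.59 and Aldh6a1 by 0.5, while the dehydrogenase core subunit Dbt rose by 0.54. In ketone body and NAD metabolism 3 of 17 were higher and 1 lower (median -0.05; 1 to 3 lower over the alternatives, 2 without 22 °C replicate 4 or 24 h replicate 1). Besides Bdh1, Nnmt, which methylates nicotinamide, rose from 44.7 to 99.4 CPM to 210 to 252 CPM (1.69 ± 0.16), and Aacs, which activates acetoacetate for lipid synthesis, fell from 210 to 277 CPM to 69.4 to 160 CPM (-1 ± 0.17). In creatine and calcium cycling 3 of 19 were higher and none lower (median 0; 1 lower without 24 h replicate 4). The 3 were Ckb, the calcium pump Atp2a2 (0.31, adjusted p = 0.0826 in the fit of 30 libraries) and Alpl, the alkaline phosphatase placed in the futile creatine cycle, which stood at 24.3, 25.1, 24.2, 20.7 and 24.3 CPM at 22 °C and at 114, 86.5, 69.8, 79.3 and 83.8 CPM after 24 h (1.87 ± 0.14, adjusted p = 3.71e-07).

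Genes of protein folding in the endoplasmic reticulum had the highest share of called members among the lists with 10 or more tested genes. Of 23 tested 13 were higher and 4 lower (median log2 0.3); the number lower was 2 without any 1 of 5 libraries (22 °C replicates 2 and 3, 24 h replicates 1, 3 and 5) and 0 without the 3 muscle-poor libraries, while the number higher was 12 to 14. Sdf2l1, a cofactor of the chaperone BiP, stood at 0.723, 0.983, 0.911, 1.13 and 0.846 CPM at 22 °C and at 4.72, 3.06, 3.98, 6.06 and 3.4 CPM after 24 h (2.21 ± 0.24, adjusted p = 9.07e-06). Manf, a secreted chaperone-linked factor, rose from 33.8 to 44.3 CPM to 64.7 to 86.6 CPM (0.98 ± 0.1), the lectin chaperone Calr by 0.68 and Creld2 by 0.59. The integrated stress response and amino acid supply list was higher in 8 and lower in 4 of 31 (median 0.01). The number higher was 4 without 22 °C replicate 2 or 24 h replicate 3 and 5 without 22 °C replicate 3, and without the 3 muscle-poor libraries 5 were higher and 2 lower. Its member Cth, which makes cysteine, rose by 1.2.

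Of 31 proteasome genes 13 were higher, none was lower and 18 were not called (median log2 0.22). Without the 3 muscle-poor libraries 5 were called, and 7 with skeletal muscle as a covariate. Over all the alternatives 5 to 19 were higher. Psma6 went from 162 to 182 CPM to 272 to 325 CPM (0.77 ± 0.08), and Psmb7 and Psmb5 both rose by 0.56. Of 23 cytosolic heat shock genes 4 were higher and none lower (17.4% called against 23.1% of all genes tested, median 0.19). The count was 2 without 22 °C replicate 1 or 24 h replicate 1 and 8 without 22 °C replicate 4, and 1 or 2 were lower without 22 °C replicate 2 or 24 h replicate 5. The small heat shock gene Hspb8 rose by 0.55 and the co-chaperone partner Hspa4 by 0.32. Antioxidant genes were higher in 7 and lower in 4 of 31 cases (median 0), with 5 to 9 higher and 3 to 6 lower over the alternatives. The peroxiredoxin Prdx6 went from 222 to 243 CPM to 373 to 486 CPM (0.82 ± 0.08). The sulfiredoxin Srxn1 rose by 0.77, while the glutathione transferase Gstm2 fell by 0.64.

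Among secreted signals and adipokines 8 of 33 were higher and 5 lower (39.4% called against 23.1% of all genes tested, median log2 0.09). In the fit of 30 libraries 5 were higher. Lep (ENSMUSG00000059201), leptin, stood at 15.5, 12.5, 21, 25 and 19.4 CPM at 22 °C and at 8.22, 2.19, 10.7, 4.24 and 2.8 CPM after 24 h (-1.72 ± 0.44, adjusted p = 0.00873), below the controls throughout. The stress hormones Fgf21 (ENSMUSG00000030827) and Gdf15 (ENSMUSG00000038508) were low, under 1 CPM in most 22 °C libraries. Fgf21 stood at 1.27, 0.315, 0.402, 0.75 and 0.175 CPM at 22 °C and at 1.63, 0.715, 2.45, 4.1 and 1.47 CPM after 24 h, with overlap (1.84 ± 0.5, adjusted p = 0.0129, but 0.0892 in the fit of 30 libraries). Gdf15 stood at 0.413 CPM or less at 22 °C and at 0.397 to 2.42 CPM after 24 h (2.9 ± 0.6, adjusted p = 0.00228; 3.54 without 22 °C replicate 1). The growth factor Fgf9 rose from 1.93 to 3.7 CPM to 7.46 to 13 CPM (1.91 ± 0.21), and Ptgds, which makes prostaglandin D2 and carries lipids, from 6.46 to 12.6 CPM to 24.9 to 42.8 CPM (1.96 ± 0.23).

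Insulin and IGF signalling was higher in 2 and lower in 5 of 22 genes (31.8% called against 23.1% of all genes tested, median log2 -0.07). On leaving out any of 6 single libraries (22 °C replicates 1, 3 and 4, 24 h replicates 2, 4 and 5), 1 was higher. The fall of Pik3r1 was joined by Irs3 (-1.46 ± 0.4), an insulin receptor substrate, and by Igf1 (-1.41 ± 0.23), which went from 26.5 to 61.7 CPM to 13.1 to 18.1 CPM. Igfbp3, a binding protein of IGFs, rose from 18.4 to 23.4 CPM to 40.6 to 66.7 CPM (1.44 ± 0.16). Glucocorticoid-responsive genes were higher in 5 and lower in 1 of 19 cases (median 0.34). Fkbp5, a chaperone of the glucocorticoid receptor, stood at 5.72, 6.41, 7.08, 10.3 and 10.6 CPM and then at 12.2, 20.9, 26, 36.5 and 24.3 CPM (1.58 ± 0.25, adjusted p = 0.000236), and Zbtb16 (2.11 ± 0.44), the cell cycle inhibitor Cdkn1a (1.79 ± 0.19) and Klf15 (0.76 ± 0.13) rose as well.

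The clock genes were higher in 2 and lower in 6 of 21 cases (median log2 -0.18), with 1 higher without the 3 muscle-poor libraries. Bmal1, the positive arm of the clock, stood at 1.24, 2.4, 1.85, 1.26 and 2.07 CPM and then at 4.49, 4.97, 7.32, 2.87 and 2.62 CPM (1.33 ± 0.28, adjusted p = 0.00239). Per3 fell (-0.79 ± 0.14), as did Bhlhe40 (-1.08 ± 0.29, adjusted p = 0.0882 in the fit of 30 libraries). Per1 did not pass the test (-0.01 ± 0.12, adjusted p = 0.96), and its sign turned in 7 alternatives. The share of these differences that follows the hour of sampling was not tested. The cold-inducible RNA-binding genes Rbm3 (0.08 ± 0.1, adjusted p = 0.613) and Cirbp (-0.14 ± 0.15, adjusted p = 0.548) did not pass, with Rbm3 at 47.8 to 57.2 CPM at 22 °C and 48.1 to 71.3 CPM after 24 h, and at -0.03 without 24 h replicate 3. Of the nuclear receptors and adipogenic factors 6 of 30 were higher and 3 lower (30% called against 23.1% of all genes tested, median 0.02). Without the 3 muscle-poor libraries 1 was lower. The estrogen-related receptor Esrrb went from 1.06 to 2.16 CPM to 4.29 to 8.18 CPM (2.08 ± 0.22).

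Matrix and vessel genes changed in both directions. Collagens, other matrix and basement membrane genes were lower in 11 and higher in 4 of 35 cases (median log2 -0.31). Over the alternatives 7 to 14 were lower, with 7 lower without the 3 muscle-poor libraries. Lama4, a laminin chain of vessel and adipocyte basement membrane, stood at 93.7, 81.8, 80.7, 80.3 and 78.9 CPM and then at 39.5, 45.3, 44.3, 40.9 and 38 CPM (-1 ± 0.08, adjusted p = 1.12e-06). In contrast Col4a2, a chain of basement membrane collagen, rose from 244 to 308 CPM to 415 to 523 CPM (0.82 ± 0.11), and elastin, Eln, and the matricellular gene Thbs1 rose by 0.98 and 1.02. Endothelial markers were higher in 4 and lower in 3 of 17 (median 0.21), with the apelin receptor Aplnr falling from 7.95 to 14.6 CPM to 2.37 to 5.54 CPM (-1.58 ± 0.22) and Sox18 rising by 0.71. Proliferation genes were higher in 4 and lower in 2 of 26 (median 0.26), with none lower without the 3 muscle-poor libraries. The 23.1% called equalled the share over all genes tested. Within this list E2f2, an S-phase transcription factor, rose from 2.76 to 6.47 CPM to 12.8 to 23.7 CPM (1.87 ± 0.22), and Tyms rose by 0.87.

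The immune lists depended on which libraries were kept. Macrophage markers were higher in 3 and lower in 1 of 17 (median log2 0.69), but without 24 h replicate 4 the counts were 1 and 2 and the median 0.23, while 8 were higher without 22 °C replicate 4 and 5 without 24 h replicate 2. Cd163 of resident macrophages rose by 0.9 (0.68 to 1.15 over the alternatives) and Cd14 fell by 1.16 (-1.29 to -0.78), and both kept their calls in the alternatives tried, while Cd68 (0.69) and C1qc (0.96) both had an adjusted p of 0.0588 without 24 h replicate 4. Interferon-stimulated genes were higher in 4 and lower in 0 of 22 (median 0.78), and the median was 0.15 without 24 h replicate 4, with 1 gene higher and 1 lower. Leaving out 22 °C replicate 2, 3, 4 or 5 gave 1 or 2 higher, and leaving out the 3 muscle-poor libraries gave 8. Ifit1 stood at 2.48 to 3.62 CPM at 22 °C and at 4.88, 5.6, 5.2, 12.4 and 5.48 CPM after 24 h, so that the other 4 cold libraries also lay above the controls (1.01 ± 0.25, adjusted p = 0.00813). Isg15 (1.2) was at 0.53 without that library (adjusted p = 0.11) and also lost its call without 22 °C replicate 1, 2, 4 or 5 (adjusted p of 0.0525 to 0.067). Kit, a mast cell marker, fell from 4.52 to 8.36 CPM to 1.87 to 2.42 CPM (-1.44 ± 0.21). It was the only called gene of 12 tested T cell, B cell and mast cell markers. The other mast cell markers Cpa3, Mcpt4, Cma1 and Tpsb2 were not called.

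The 24 h levels were placed beside the 6 h levels of BAT in the same fit, in which 1708 of 13090 genes (13%) differed between 24 h and 6 h. The comparisons of 6 h and 24 h with 22 °C share the control libraries, so each gene's own values are given and no overlap is drawn. Genes that stood higher at 24 h than at 6 h include Bmp8b, at 1.24, 2.74, 4.87, 2.74 and 5.7 CPM at 6 h (24 h over 6 h log2 2 ± 0.33, adjusted p = 0.000935), Cpne5 (2.33 ± 0.33), Ckb (1.64 ± 0.18), Alpl (1.14 ± 0.14) and Ptgds (2.04 ± 0.23). Ptgds at 6 h (4.59 to 10.7 CPM) overlapped the controls. Genes lower at 24 h than at 6 h include Fgf14 (-2.21 ± 0.23), Lctl (-1.59 ± 0.19), Vat1l (-1.57 ± 0.21) and Acsm3 (-1.56 ± 0.21). Dio2 was at 1250, 1310, 1430, 1590 and 1470 CPM at 6 h, above every 24 h library (24 h over 6 h -1.11 ± 0.14, adjusted p = 0.000128). Bmal1 (-1.11) and E2f2 (-0.87) likewise stood lower at 24 h than at 6 h and higher than at 22 °C. For Ppargc1a (-0.31 ± 0.25, adjusted p = 0.44), Gmpr (0.35 ± 0.17, adjusted p = 0.189), Lpl (-0.05 ± 0.09, adjusted p = 0.752) and Ucp1 (-0.24 ± 0.1, adjusted p = 0.126), no difference between the times passed the test.

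The size of the 24 h response was compared with that of iWAT in 1 fit of all 30 libraries. The difference passed the test for 1100 of 14089 genes (7.81%). Of the 20 genes fixed for this comparison 7 passed. Single libraries were left out from BAT only, so the iWAT side was not checked in that way. In iWAT 22 °C replicate 2 skeletal muscle markers took 0.526% of counts, against 0.0068 to 0.0073% in the other iWAT 22 °C libraries. Ucp1 had a log2 fold change of 0.28 in BAT and 3.47 in iWAT (BAT minus iWAT -3.2 ± 0.92, adjusted p = 0.0312; 0.0518 without BAT 24 h replicate 4). Dio2 had 0.61 and 3.38 (-2.77 ± 0.8, adjusted p = 0.0312; 0.0523 without BAT 22 °C replicate 2 and 0.0529 without BAT 24 h replicate 4), and Cpt1b 0.06 and 2.15 (-2.09 ± 0.54, adjusted p = 0.0175). Fasn had -1.05 in BAT and 0.3 in iWAT, where it did not pass (difference -1.35 ± 0.38, adjusted p = 0.027). Acly (-1.79 ± 0.56, adjusted p = 0.0464) lost the call in 9 of 13 alternatives, with adjusted p of 0.0519 to 0.0904. Pdk4 (-1.88 ± 0.55, adjusted p = 0.0312) had 0.0508, 0.0512 and 0.051 without BAT 22 °C replicate 2, BAT 24 h replicate 1 and BAT 24 h replicate 4. Rbm3 had 0.1 in BAT and 0.67 in iWAT (-0.57 ± 0.14, adjusted p = 0.0118). For Bmp8b the responses were 4.96 and 4.79 and the difference was 0.17 ± 0.74 (adjusted p = 0.915), and for Ppargc1a they were 2.09 and 2.76 (-0.67 ± 0.51, adjusted p = 0.454).

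**Figure D5:**
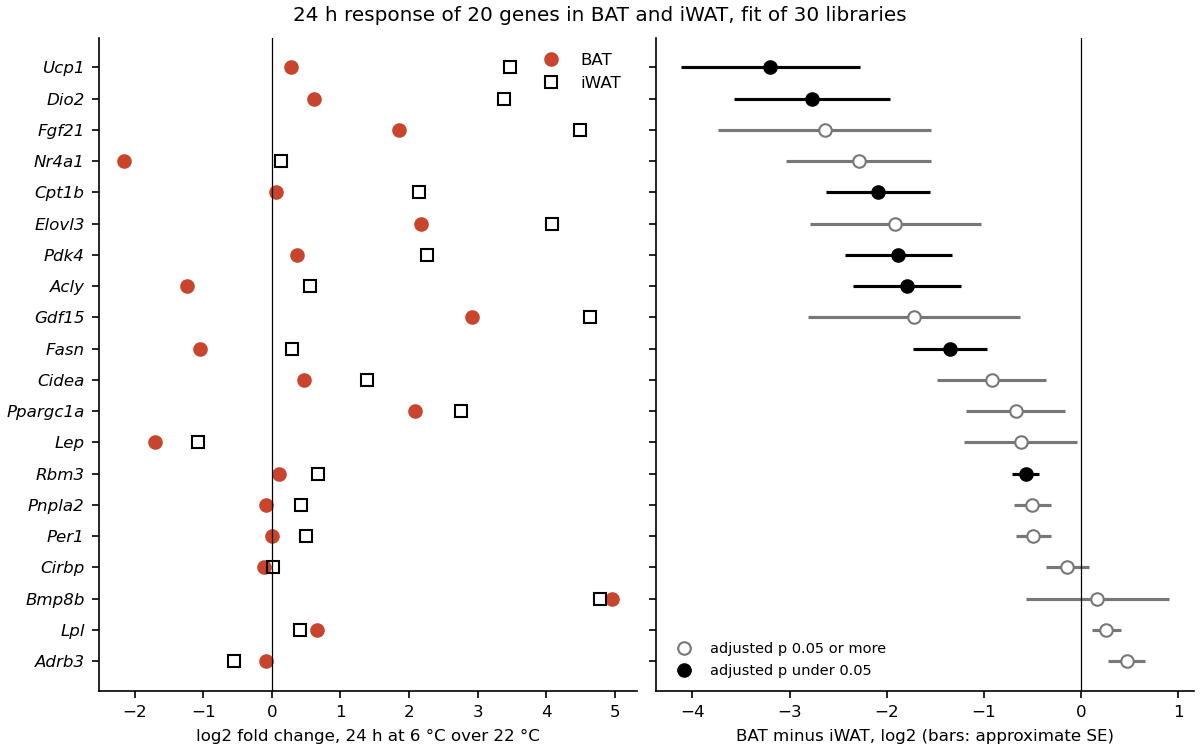
Left, log2 fold change (24 h at 6 °C over 22 °C) of 20 genes in BAT (red circles) and iWAT (black squares) from the fit of 30 libraries; right, BAT minus iWAT with approximate SE, filled where the adjusted p is under 0.05. The 7 filled points, from Ucp1 at -3.2 to Rbm3 at -0.57, all lie left of zero.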

How the data were processed

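RNA-seq of BAT and iWAT gave 2 tables over 30 libraries, 5 in each of 6 groups. Per the submitters' processing notes the authors used HISAT2, HTSeq and GRCm39, with no versions or roles given. Strandedness, annotation and filters are not given in the sources used here. The deposited counts are raw assigned reads per gene. The authors' deposited FPKM are taken to be those counts per kilobase and per M (mega) assigned reads, without TMM scaling. There were 0 further columns of per-sample values. Antisense partners, overlapping genes and close paralogs may share reads.

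From the counts, low genes were removed with filterByExpr (minimum count 10) over the 15 BAT libraries, scaled by TMM and tested with edgeR 4.0.16 (R 4.3.3) by its quasi-likelihood test with group as the only term. P-values were adjusted by Benjamini-Hochberg over all genes tested and called under 0.05. CPM values use TMM-scaled library sizes. The depot difference was an interaction contrast over all 30 libraries. SEs are approximate, from the fold change and its F statistic. The script was tested on simulated data. Assigned counts per library limit precision for genes under about 1 CPM.

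Named genes are the 12 called genes that rose most and the 12 that fell most without overlap and with at least 5 CPM in 1 group, leaving out predicted genes, up to 4 called members of each of 46 gene lists by size of change, 20 fixed genes, and the 10 smallest p-values. The members and lists were chosen with earlier results of these data known. Zic1 and Lhx8 are given as tissue markers. Some named genes are not reported here. Promoter windows come from a RefSeq table on GRCm38.p6. Alternatives were DESeq2 1.42.0, other scaling and filters, limma 3.58.1 on log2 FPKM, other sets of libraries in the fit, a replicate block and each replicate left out, and, added after seeing the data, a skeletal muscle covariate and leaving out 3 libraries.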

Additional observations from a re-analysis of the deposited data

Results flagged for a closer look

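In 21 of 352 groups of 5 libraries, over 131 genes and 46 lists on a log2 scale, 1 library lay farther from the rest than Dixon's 95% limit of 0.71. Chance sets apart about 1 group in 20. The part of any cause was not tested.

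At 22 °C, replicate 4 stood apart for Alpl (20.7 CPM, others 24.2 to 25.1), Bhlhe40 (81.9 CPM, others 132 to 149), C1qc (14.3 CPM, others 7.2 to 8.39) and Prkar1a (264 CPM, others 310 to 328). Replicate 1 did so for Lama4 (93.7 CPM, others 78.9 to 81.8), Pik3r1 (59.5 CPM, others 163 to 243) and Zbtb16 (3.68 CPM, others 7.53 to 8.83). Replicate 2 was low for Ntrk3 (94.9 CPM, others 139 to 158) and Slc2a5 (6.65 CPM, others 16.7 to 21.9), replicate 5 for Ifit1 (2.48 CPM), and replicate 3 was high for Sardh (28.6 CPM).

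At 24 h, replicate 4 was high for Ifit1 (12.4 CPM, others 4.88 to 5.6), Isg15 (13.6 CPM, others 2.58 to 4.04) and the mean of the interferon-stimulated genes (log2 CPM 4.61). Replicate 1 was low for Sardh (5.8 CPM) and high for Mogat1 (5.97 CPM), Nnmt (252 CPM, others 210 to 217) and the mean of mitochondrial ribosomal genes (log2 CPM 6.13, others 5.93 to 5.98). Replicate 2 was low for Hcar1 (2.46 CPM, others 5.39 to 6.06). Replicate 5 was low for Cars2 (79.2 CPM, others 109 to 117) and high for the mean of the Wnt antagonists and receptors (log2 CPM 3.11, others 2.72 to 2.83).

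The 24 h response differed between BAT and iWAT, by the test of the difference itself, for Ucp1 (BAT minus iWAT log2 -3.2), Dio2 (-2.77), Fasn (-1.35), Acly (-1.79), Pdk4 (-1.88), Cpt1b (-2.09) and Rbm3 (-0.57). As given above, Acly lost this call in most alternatives, and Pdk4, Dio2 and Ucp1 lost it in fewer.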

How the results depend on the processing

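Over the alternatives for scaling, filter, tool and libraries fitted, 2405 to 3442 genes were called against 3030, the lowest with a skeletal muscle covariate. Leaving out 1 replicate at a time gave 2471 to 2870 called genes, 1369 to 1566 higher and 1102 to 1304 lower, 1205 to 1712 for 24 h against 6 h, and 793 to 1098 for the depot difference (1453 in a fit of 20 libraries). Without the 3 muscle-poor libraries the counts were 1738 called, 1013 higher, 725 lower and 1075 for 24 h against 6 h. That setting tests fewer samples, and it kept the 6 h libraries with little muscle RNA. Apart from the 20 fixed genes only called genes could be chosen for naming, so the 169 called of 177 follow largely from the choice. These genes do not describe the 3030 calls as a whole. Of the 169 named genes called, 124 kept the call in every alternative. Calls lost numbered 24 without those 3 libraries, 21 in the fit of 30 libraries and 11 with the covariate.

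Over the settings that leave out 1 replicate, Adrb3 ranged from -0.2 to 0.04, Cpt1b from -0.06 to 0.11, Per1 from -0.08 to 0.07 and Rbm3 from -0.03 to 0.12. The sign turned for 4 genes, none of them called. Adrb3 was at 0.04 and Rbm3 at -0.03 without 24 h replicate 3, and Cpt1b at -0.01 without 22 °C replicate 5 and -0.06 without 24 h replicate 2. Per1 was at 0 in the fit of 30 libraries, at 0.02, 0.03 and 0.01 without 22 °C replicates 1, 4 and 5, at 0.07 and 0.03 without 24 h replicates 1 and 5, and at 0.02 with the covariate. The cause was not tested.

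Whether replicate numbers pair the libraries could not be decided from so few libraries. The correlations of same-numbered deviations were 0.13, 0.52, 0, 0.16 and 0.55, and some but not all libraries correlated best with their own number. With a replicate block 3442 genes were called, 1839 higher and 1603 lower, 2124 for 24 h against 6 h and 1178 for the depot difference.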

Other observations

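The counts of the remaining gene lists follow, beside a background of 12.8% of all genes higher and 10.4% lower. Cholesterol synthesis and uptake genes were higher in 1 and lower in 2 of 25 cases (median log2 -0.04; 5 lower with the muscle covariate, 2 higher without 24 h replicate 3). Wnt antagonists, R-spondins and receptors were higher in 3 and lower in 0 of 13 (median 0.02; 1 higher in the fit of 30 libraries or without the 3 muscle-poor libraries). White adipocyte genes were higher in 1 and lower in 2 of 8 (median -0.2; 1 lower without the 3 muscle-poor libraries). Adipose progenitor and fibroblast markers were higher in 2 and lower in 3 of 16 (median -0.09), with 1 lower in 6 of the 10 settings that leave out a replicate (22 °C replicates 4 and 5, 24 h replicates 1, 2, 3 and 4). The number higher was 1 without 22 °C replicate 1, 2 or 3 or without 24 h replicate 3 or 4. Pericyte and vascular smooth muscle markers were higher in 2 and lower in 1 of 10 (median -0.12), with none higher on leaving out 1 of 22 °C replicates 3 and 5 and 24 h replicates 2 and 4, 1 higher without 22 °C replicate 2 or 24 h replicate 3, and 2 lower without 24 h replicate 1. T cell, B cell and mast cell markers were higher in 0 and lower in 1 of 12 (median -0.35). None of 6 Schwann cell and nerve markers (median -0.11), 5 erythroid markers (median 0.23) and 1 neutrophil marker was called by edgeR's quasi-likelihood test. The markers of the labelled tissue were higher in 4 and lower in 1 of 12 (median 0.09; 2 higher in the fit of 30 libraries).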
